A study of Mus musculus with 8 samples.

Results

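Chemokines and their receptors were followed in mouse wound scars, as the 47 genes whose single annotated symbol names a chemokine ligand or receptor of the CC, CXC, CX3C or XC class, out of 20259 genes tested. Cxcl12 and its receptor were left aside. The set holds 31 ligands and 16 receptors. All of them were measured in whole-skin biopsies of early scars in a model of wound-induced hair neogenesis, in which new hair follicles form in the scar of a large wound. A strain with high regeneration was compared with a strain with low regeneration, with 4 mice and 4 Affymetrix exon arrays in each group. All scars were kept in RNAlater before extraction, and the labels name no treatment. The strains, the ages and the day of biopsy are not named by the labels, and strain and level of regeneration cannot be told apart. Values are deposited log2 expression values, so a difference of 1 is a doubling.

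Chemokines are small secreted proteins that bind receptors coupled to G proteins and draw leukocytes along their gradients. Ligands with a CXC pair of cysteines include those that attract neutrophils and those that interferon induces. Ligands of the CC class attract monocytes, eosinophils, dendritic cells and T cells. In skin, keratinocytes themselves release several of them, while most of the receptors sit on the leukocytes that arrive.

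Some properties of the arrays touch these results. The array medians over all rows lay between 6.09 and 6.29. The scars low 3 and low 4 were rich in muscle transcripts, with a mean log2 level of 9.64 and 10.28 over 10 skeletal muscle genes, against 6.82 to 7.02 in the high arrays and 6.91 and 6.96 in the 2 other low arrays. The Y-linked gene Eif2s3y was at 7.70 in high 4 and at 7.67 and 7.57 in low 2 and low 4, against 4.08 to 4.76 elsewhere. Xist, which females transcribe from their silenced X chromosome, was at 6.11 in high 4 and at 12.74 to 12.93 in the remaining high scars, against 9.60 and 10.05 in low 2 and low 4 and 12.76 and 12.90 in low 1 and low 3. Low 2 and low 4 thus carried both signals, and what these biopsies held cannot be told from the labels. Keratinocyte markers had a mean level of 11.78 to 11.87 in high and 11.65 to 11.88 in low scars, and 0 of 7 passed while 4 had an unadjusted p under 0.05 in limma, 2 in each direction.

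High-regeneration scars had 2 of the 47 genes at a higher level and 2 at a lower one (limma, adjusted p under 0.05 over all genes tested). Higher were Cxcl11, a ligand that interferon induces, and Ccl3, a macrophage inflammatory protein. Lower were Cxcl14 and Ccl27a, ligands that keratinocytes produce. These 4 genes are 8.51% of the set, against 4.32% of all genes that passed in either direction, 1.86% higher and 2.47% lower. An unadjusted p under 0.05 was reached by 17 members, or 36.2%, against 21.8% of all genes. Of these, 11 were positive and 6 negative, where 11.7% and 10.1% of all genes were. The groups did not overlap in 7 members, or 14.9%, which is near the 14.5% of all genes; 5 were higher and 2 lower, where 7.19% and 7.29% of all genes were. Differences were positive in 29 members and negative in 18, against 11587 and 8672 of all genes. The median log2 difference of the members was 0.12, against 0.03 over all genes, and 1 member reached a difference of 1. After the arrays were centred on their medians over all rows, most of which carry no symbol, these 2 medians were 0.06 and -0.04. Before centring, the array medians over the genes tested were 7.274 to 7.295 in high and 7.292 to 7.328 in low scars. In whole biopsies, fewer cells of a type and less RNA per cell cannot be told apart.

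**Figure D1:**
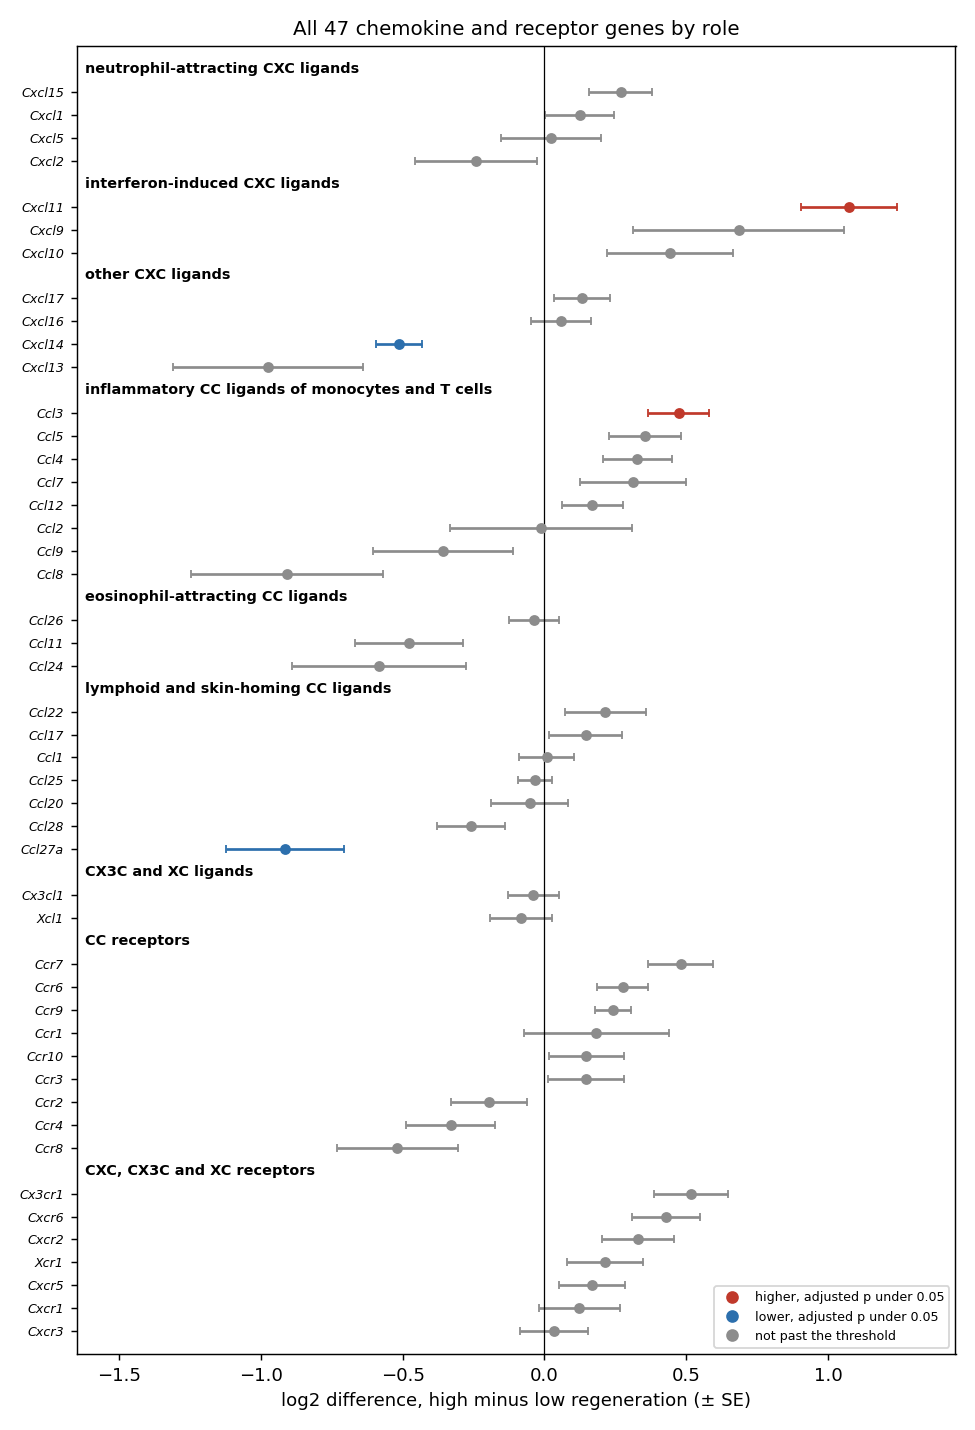
Log2 difference, high minus low regeneration, for each of the 47 genes (points, with the SE of the fit as bars), arranged by role. Cxcl11 and Ccl3 are coloured as higher and Cxcl14 and Ccl27a as lower at an adjusted p under 0.05, and all receptors are grey.

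The 3 interferon-induced CXC ligands, which attract activated T cells through Cxcr3, all had positive differences, and 1 passed. Cxcl11 was at 7.33, 7.11, 6.61 and 6.53 in high 1 to high 4, against 5.81, 5.91, 5.67 and 5.88 in low 1 to low 4. Every high scar lay above every low scar, while the high scars themselves spread more widely. The mean was 6.89 ± 0.39 in high and 5.82 ± 0.10 in low scars (SD, n = 4 each), a difference of 1.07 ± 0.17 (SE) with an adjusted p of 0.0127 in limma. All low scars lay under the 25th percentile of gene levels, 6.18, where background can hold much of the signal, so the size of the difference is uncertain. The gene passed with each array left out in turn, but not without the muscle-rich low 3 and low 4 (1.03, adjusted p = 0.0829) nor without low 2, low 4 and high 4, which had the Y-linked signal (1.27, adjusted p = 0.150). In the GRCm38.p6 reference, made from C57BL/6J mice, Cxcl11 is annotated as a transcribed pseudogene, while the other 46 members are protein-coding.

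Its neighbours were less even. Cxcl9 was at 9.64, 10.07, 8.58 and 8.25 in high 1 to high 4, against 8.17, 8.76, 8.17 and 8.70 in low 1 to low 4. High 1 and high 2 stood above every low scar, and high 3 and high 4 lay within the low range. The difference was 0.68 ± 0.37 (SE) and did not pass (adjusted p = 0.313). Cxcl10 was at 7.998, 8.22, 8.20 and 7.70 in high scars, against 8.08, 7.89, 7.05 and 7.32 in low scars. The 2 lowest values were those of the muscle-rich scars, and the difference of 0.44 ± 0.22 (adjusted p = 0.279) was 0.04 without them. Their receptor Cxcr3 differed by 0.03 ± 0.12 (adjusted p = 0.890) and took a negative sign after median centring. Around these ligands, 21 of 24 measured interferon-stimulated genes were higher and 0 lower, where 1.86% and 2.47% of all genes were. The list had a median of 0.93, against 0.03 over all genes. Its mean level was 8.93 to 9.18 in high and 7.83 to 8.26 in low scars.

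Promoter windows of the ligands are shown because interferon and NF-kB are the best known inducers of this family. RefSeq windows on GRCm38.p6, from 250 bases before to 50 bases after an annotated start, were at hand for 33 of the 47 members, 37 windows in all. The letters GAAANNGAAA, the core of the interferon response element, and GGGANNTTCC, a form of the kB site, were searched on both strands, and a kB match can overlap its own match on the other strand. The first motif was found in 2 members, Cxcl10 and Cxcl14, which is 5.41% of the member windows against 3.44% of all 32851 windows. The kB form was found in 5 members, Cxcl1, Cxcl2, Cxcl10, Ccl1 and Ccr3, which is 13.5% against 1.47%. None of these 5 passed the test in limma, and none had an unadjusted p under 0.05. No window of Cxcl11, which passed, is shown, and a member without a match may be one that had no window. The windows of Cxcl10 and of 3 genes that passed are given 5′ to 3′ on the minus strand, with matches in capitals. They lie at chr5:92348840-92349139, chr13:56296502-56296801, chr11:83649329-83649628 and, for the most downstream of 3 starts of Ccl27a, chr4:41770163-41770462.
Cxcl10: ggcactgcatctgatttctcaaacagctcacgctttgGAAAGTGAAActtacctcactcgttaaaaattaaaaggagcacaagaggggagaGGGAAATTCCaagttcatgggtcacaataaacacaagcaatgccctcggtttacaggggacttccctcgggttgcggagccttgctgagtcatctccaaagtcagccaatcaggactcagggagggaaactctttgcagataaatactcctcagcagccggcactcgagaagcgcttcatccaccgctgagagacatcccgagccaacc
Cxcl14: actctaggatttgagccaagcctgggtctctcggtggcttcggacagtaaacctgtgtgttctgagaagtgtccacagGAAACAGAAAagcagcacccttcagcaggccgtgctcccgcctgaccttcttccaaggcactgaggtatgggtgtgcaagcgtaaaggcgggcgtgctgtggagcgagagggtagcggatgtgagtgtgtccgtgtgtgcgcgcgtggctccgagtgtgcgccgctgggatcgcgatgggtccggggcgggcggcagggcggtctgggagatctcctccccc
Ccl3: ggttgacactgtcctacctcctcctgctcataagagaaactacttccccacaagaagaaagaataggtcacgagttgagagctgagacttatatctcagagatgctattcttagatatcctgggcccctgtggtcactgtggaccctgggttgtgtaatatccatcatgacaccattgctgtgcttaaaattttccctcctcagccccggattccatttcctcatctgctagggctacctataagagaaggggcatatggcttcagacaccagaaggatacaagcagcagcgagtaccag
Ccl27a: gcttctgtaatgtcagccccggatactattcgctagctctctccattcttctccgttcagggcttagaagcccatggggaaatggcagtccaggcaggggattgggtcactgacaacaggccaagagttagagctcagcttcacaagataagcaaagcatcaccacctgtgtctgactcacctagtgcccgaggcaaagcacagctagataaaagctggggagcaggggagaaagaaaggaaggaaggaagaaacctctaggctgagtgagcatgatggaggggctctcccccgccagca
In Cxcl10 the interferon motif begins 213 bases before the start and the kB match 159 bases before it. Other forms of the kB site were not searched, and letters in lower case, such as gggacttccc in the Cxcl10 window, may hold one. In Cxcl14 the interferon motif begins 172 bases before the start, in a gene that was lower in the scars where the interferon-stimulated genes were higher. Whether any of these matches acts in the scars was not tested. The windows of Ccl3 and Ccl27a hold neither set of letters.

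The 2 ligands that fell are known as products of resting epidermis. Cxcl14, a ligand released by keratinocytes of intact skin, was at 7.66, 7.80, 7.72 and 7.49 in high 1 to high 4, against 8.23, 8.28, 8.10 and 8.11 in low 1 to low 4. The groups were apart, with a narrow spread in both. The mean was 7.67 ± 0.13 in high and 8.18 ± 0.09 in low scars (SD, n = 4 each), and the difference of -0.51 ± 0.08 (SE) had an adjusted p of 0.0127. It was the only member that passed without low 3 and low 4 (-0.59, adjusted p = 0.0379), and it did not pass without low 2, low 4 and high 4 (-0.44, adjusted p = 0.221).

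Ccl27a draws skin-homing T cells through Ccr10. It was at 8.57, 9.01, 8.15 and 8.15 in high 1 to high 4, against 9.61, 9.65, 9.15 and 9.12 in low 1 to low 4. The highest of the high scars came close to the lowest of the low scars without reaching it. The mean was 8.47 ± 0.41 in high and 9.38 ± 0.29 in low scars (SD, n = 4 each), a difference of -0.91 ± 0.21 (SE) at an adjusted p of 0.0440. Its 2 rows moved alike, at -0.85 and -0.97. Another row, shared with the predicted gene Gm20878, was at -0.08 and did not pass. Leaving out any single array other than high 2 took Ccl27a over the threshold (adjusted p of 0.0643 to 0.121), with differences of -1.0025 to -0.81, as did leaving out low 3 and low 4 together (-1.16, adjusted p = 0.0682). Its receptor Ccr10 differed by 0.15 ± 0.13 (adjusted p = 0.532), and the related ligand Ccl28, which also binds Ccr10, by -0.26 ± 0.12 (adjusted p = 0.246).

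Keratinocyte markers moved in both directions beside these ligands. Krt15, a keratin of basal and follicle stem cells, was at 9.23, 9.66, 8.54 and 8.83 in high 1 to high 4, against 9.64, 9.84, 9.84 and 9.87 in low 1 to low 4. High 3 and high 4 were its lowest scars, as they were for Ccl27a. Its difference was -0.74 ± 0.21 (adjusted p = 0.0823), and that of Trp63, a transcription factor of basal keratinocytes whose groups were apart, was -0.24 ± 0.06 (adjusted p = 0.0702). Krt14, of basal cells, and Krt16, a wound-induced keratin, differed by 0.38 ± 0.13 and 0.57 ± 0.20 (adjusted p of 0.134 and 0.139). The part of these cells in the Ccl27a and Cxcl14 values was not tested.

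**Figure D2:**
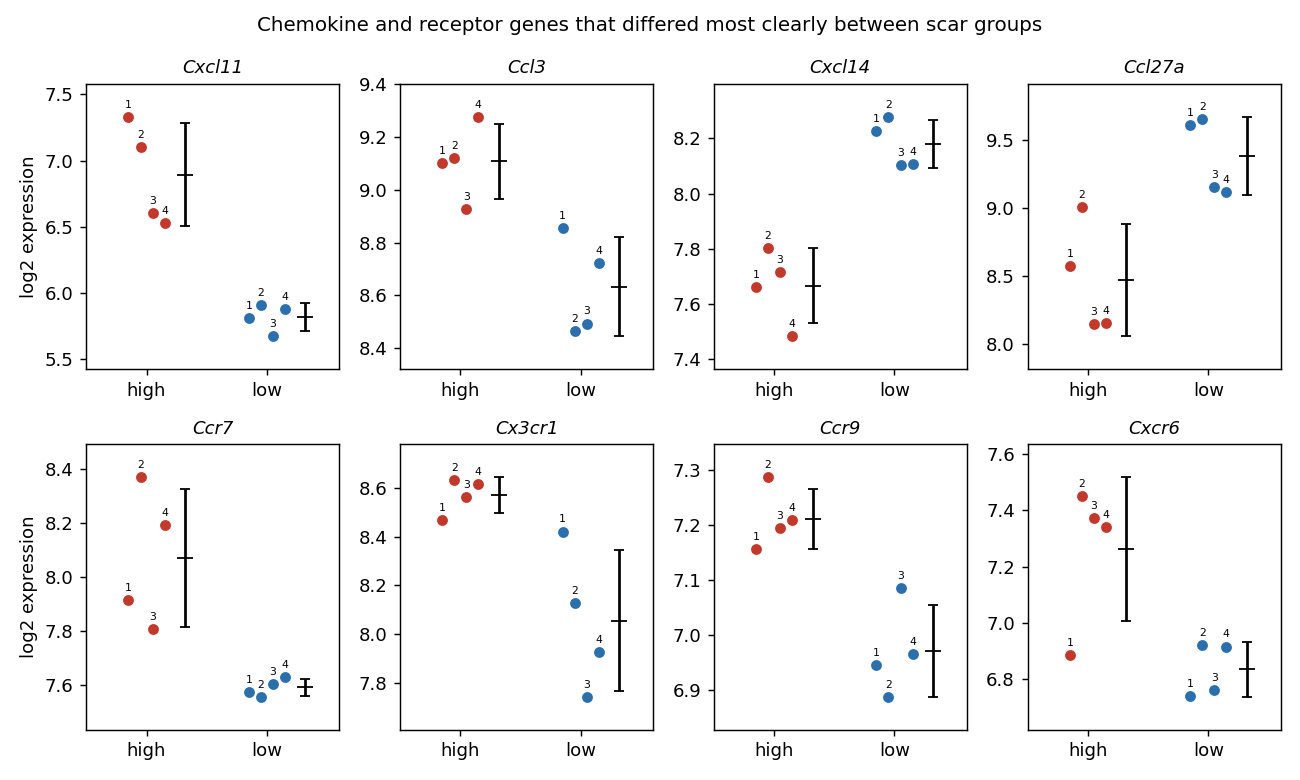
Log2 expression of 8 members in each array (points numbered by replicate, high left of low), with mean and SD as black bars beside them. The upper panels hold the 4 genes that passed and the lower panels 4 receptors that did not. The groups are apart in every panel except that of Cxcr6, which was added after its values were seen.

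Inflammatory CC ligands, which attract monocytes and T cells, had 1 of 8 members higher and 0 lower, at a median of 0.24. Ccl3 was at 9.10, 9.12, 8.93 and 9.28 in high 1 to high 4, against 8.85, 8.46, 8.49 and 8.72 in low 1 to low 4. The groups did not overlap, though high 3 and low 1 were close. The mean was 9.11 ± 0.14 in high and 8.63 ± 0.19 in low scars (SD, n = 4 each), a difference of 0.47 ± 0.11 (SE) at an adjusted p of 0.0428. The call was lost when any array other than low 1 was left out (adjusted p of 0.0596 to 0.110), after median centring (0.0739), with the replicate number as a block (0.0750) and without low 3 and low 4 (0.173). It was also lost without low 2, low 4 and high 4 (0.391), as was that of Ccl27a (0.361). The adjacent gene Ccl4, a close relative, was at 6.50 to 6.87 in high and 6.08 to 6.55 in low scars, a difference of 0.33 ± 0.12 (adjusted p = 0.165). Ccl5, released by activated T cells among others, differed by 0.35 ± 0.13 (adjusted p = 0.151). Their receptor Ccr1 was at 0.18 ± 0.26 (adjusted p = 0.695).

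The monocyte ligands of Ccr2 did not pass. Ccl2 was at 9.47 to 10.81 in high and 9.59 to 10.80 in low scars, a difference of -0.01 ± 0.32, and Ccl7 and Ccl12 differed by 0.31 and 0.17. Ccr2 itself was at -0.19 ± 0.13 (adjusted p = 0.416). Ccl8, which in the mouse is a ligand of Ccr8, was at 9.22, 9.49, 7.96 and 8.04 in high 1 to high 4, against 9.21, 9.78, 9.74 and 9.61 in low 1 to low 4. High 1 and high 2 lay in the low range, and high 3 and high 4 far below it. The difference was -0.91 ± 0.34 with an adjusted p of 0.166. Ccr8, carried by T cells of skin, also had its lowest values in high 3 and high 4, with 6.35, 6.52, 5.94 and 5.41 in high scars, against 6.44 to 6.72 in low scars (-0.52 ± 0.21, adjusted p = 0.200). Ccl1, its other ligand, differed by 0.01.

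Of the ligands that attract eosinophils, 0 of 3 passed, and 1 had an unadjusted p under 0.05 in limma. Ccl11, or eotaxin, was at 10.02, 10.05, 9.21 and 9.39 in high 1 to high 4, against 9.99, 10.14, 10.32 and 10.13 in low 1 to low 4. Again high 3 and high 4 were the lowest scars, and the difference of -0.48 ± 0.19 had an adjusted p of 0.188. Ccl24, a second eotaxin, was at 5.47, 6.12, 5.71 and 5.75 in high scars, against 6.23, 5.39, 6.88 and 6.88 in low scars. These values are means of 2 rows, which differed by -0.90 and -0.26. The Ccl24 difference of -0.58 ± 0.31 (adjusted p = 0.297) was -0.05 without the muscle-rich low 3 and low 4, where its 2 highest values lay. Their receptor Ccr3 had a low signal of 4.02 to 4.63 in high and 3.94 to 4.33 in low scars.

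Some markers of other cells split the high scars in the same way, while others of the same lists did not. The mast cell proteases Cpa3 and Cma1 were at 10.05, 9.91, 8.96 and 9.14 and at 8.36, 8.27, 7.52 and 7.55 in high 1 to high 4, against 9.56 to 10.45 and 7.78 to 8.65 in low scars. Mrc1, of macrophages, was at 10.50, 10.28, 9.81 and 9.58 in high scars, against 10.54 to 10.98 in low scars. S100a8, of neutrophils and activated keratinocytes, had the opposite order, with 9.40, 8.73, 10.56 and 10.67 in high scars, against 9.31 to 10.11 in low scars. S100a9 also had high 3 and high 4 above high 1 and high 2. Mmp8, of neutrophils, went the other way, with 6.63, 6.15, 5.86 and 5.83 in high 1 to high 4. Cd68, of macrophages, was at 10.75, 10.65, 10.89 and 10.96, and Prg2, of eosinophils, at 6.63, 6.68, 6.80 and 6.59. These markers were named after their values were seen, and their part in the values of Ccl8, Ccr8, Ccl11 and Cxcl9 was not tested.

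Cxcl13 and Ccl9 had their highest values in low 3 and low 4, as Ccl24 did. Cxcl13, which guides B cells through Cxcr5, was at 5.40, 5.21, 5.23 and 5.23 in high 1 to high 4, against 5.26, 5.91, 7.09 and 6.71 in low 1 to low 4. The signal was low in all high scars and in low 1, and it was raised in the 2 muscle-rich scars. The difference of -0.98 ± 0.33 (adjusted p = 0.136) was -0.32 without them. Ccl9, a macrophage product of mice, was at 9.20 to 9.61 in high scars, against 9.46, 9.08, 10.29 and 10.15 in low 1 to low 4. Its difference was -0.36 ± 0.25 with all arrays and 0.12 without low 3 and low 4. Skeletal muscle genes had the same 2 scars high, as given above, and their part in these values was not tested.

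**Figure D3:**
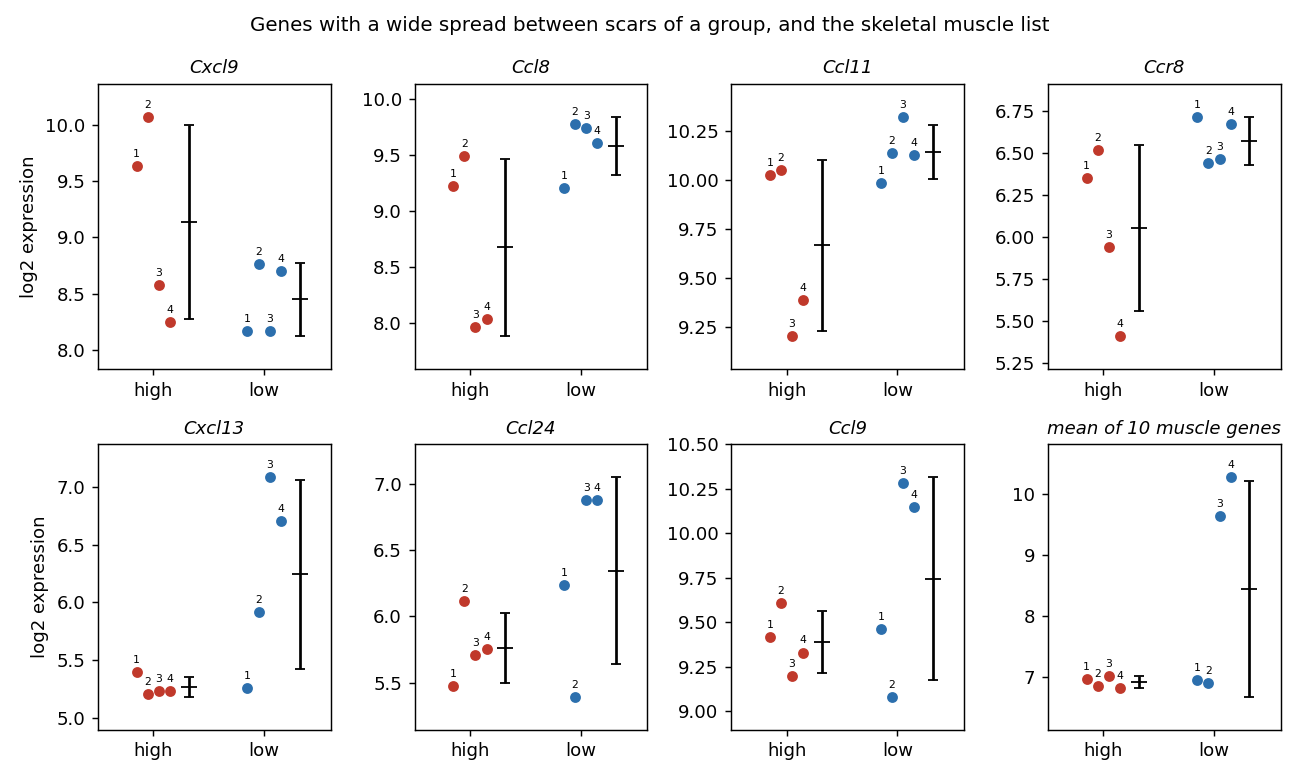
Log2 expression of 7 members with a wide spread within a group, chosen after their values were seen, and the mean of 10 skeletal muscle genes, in each array (points numbered by replicate, high left of low, mean and SD as black bars). In the upper panels high 1 and high 2 stand apart from high 3 and high 4, and in the lower panels low 3 and low 4 stand above the other low scars.

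Ligands of neutrophils had 0 of 4 members past the threshold in limma and 1 with an unadjusted p under 0.05. Cxcl1 was at 8.36 to 8.88 in high and 8.31 to 8.58 in low scars (0.12 ± 0.12), and Cxcl2 differed by -0.24 ± 0.22 and Cxcl5 by 0.02 ± 0.18. Cxcl15, known from mouse lung, differed by 0.27 ± 0.11 at an adjusted p of 0.198. Cxcr2, the receptor of these ligands on neutrophils, was at 7.44 to 7.96 in high and 7.15 to 7.497 in low scars (0.33 ± 0.13, adjusted p = 0.175). Neutrophil markers had 0 of 12 past the threshold and 2 with an unadjusted p under 0.05, and their mean level was 6.66 to 6.91 in high and 6.65 to 7.28 in low scars.

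The remaining ligands varied little. Ccl17 and Ccl22, products of dendritic cells that bind Ccr4, differed by 0.15 and 0.22, and the 2 rows of Ccl17 disagreed at -0.03 and 0.32. Ccl20, the ligand of Ccr6, differed by -0.05 ± 0.14 and Ccl25, the ligand of Ccr9, by -0.03 ± 0.06. Cxcl16, a membrane-bound ligand of Cxcr6, differed by 0.06 ± 0.11, Cxcl17, of mucosal tissue, by 0.13 ± 0.10 and Ccl26 by -0.04 ± 0.09. Xcl1, a ligand released by cytotoxic lymphocytes, and Cx3cl1, which is anchored in endothelial and epithelial membranes, were at -0.08 and -0.04. Adjusted p-values of these 9 genes were between 0.401 and 0.845.

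Among the 16 receptors 0 passed and 7, or 43.8%, had an unadjusted p under 0.05 in limma, against 21.8% of all genes. Of these, 6 were positive, where 11.7% of all genes were. Differences were positive for 13 of the 16, with a median of 0.18, where 11587 of all 20259 genes had positive ones. The groups were apart in 3 receptors, each higher in high regeneration, where 7.19% of all genes were. Ccr7, which guides dendritic cells and T cells to lymph nodes, was at 7.92, 8.37, 7.81 and 8.19 in high 1 to high 4, against 7.58, 7.56, 7.60 and 7.63 in low 1 to low 4. The low scars were nearly equal and the high scars spread above them. The difference of 0.48 ± 0.12 (SE) had an adjusted p of 0.0518, and over the alternatives 0.0333 to 0.409.

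Cx3cr1, the receptor of tissue macrophages and patrolling monocytes, was at 8.47, 8.64, 8.56 and 8.62 in high scars, against 8.42, 8.13, 7.74 and 7.93 in low scars. Here the high scars were nearly equal, and low 1 came close to them. The difference was 0.52 ± 0.13 at an adjusted p of 0.0600 with all arrays, and 0.30 (adjusted p = 0.214) without low 3 and low 4. It was 0.64 at an adjusted p of 0.0154 without low 1. Ccr9, known from thymus and gut lymphocytes, was at 7.16 to 7.29 in high and 6.89 to 7.09 in low scars (0.24 ± 0.06, adjusted p = 0.0679).

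Cxcr6, of tissue-resident T cells, was at 6.89, 7.45, 7.37 and 7.34 in high 1 to high 4, against 6.74, 6.92, 6.76 and 6.92 in low 1 to low 4. All high scars except high 1 lay above the low scars. The difference of 0.43 ± 0.12 had an adjusted p of 0.0822, and 0.0147 without high 1. Ccr6, of type 17 lymphocytes and Langerhans cells, differed by 0.28 ± 0.09 (adjusted p = 0.121) and Ccr4 by -0.33 ± 0.16 (adjusted p = 0.254). Xcr1, of cross-presenting dendritic cells, Cxcr5 and Cxcr1 differed by 0.21, 0.17 and 0.12, with adjusted p-values of 0.375 to 0.634.

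Markers of cells that carry these receptors gave few calls. Calls are to be read against 1.86% of all genes higher and 2.47% lower. An unadjusted p under 0.05 is to be read against the 21.8% of all genes that had one. Macrophage and monocyte genes had 2 of 10 higher, Cd300e (0.77 ± 0.12) and Fcgr1 (0.67 ± 0.09), both receptors of myeloid cells. Other markers of the list had negative differences. Mrc1, a mannose receptor whose groups were apart, was at -0.68 ± 0.19 (adjusted p = 0.0819), and the scavenger receptor Cd163 at -0.9995 ± 0.34 (adjusted p = 0.134). Cd163 was at 6.33 to 6.77 in high scars, against 6.77, 7.045, 8.415 and 8.14 in low 1 to low 4. Its highest values thus lay in the muscle-rich low 3 and low 4. The list held 6 positive and 4 negative differences, and its mean level was 8.76 to 8.999 in high and 8.65 to 9.04 in low scars. T and natural killer cell genes had 1 of 11 higher, the coreceptor Cd4 at 0.59 ± 0.12, and the mean of the list was 6.76 to 7.09 in high and 6.70 to 6.79 in low scars. Of the dendritic and Langerhans cell genes 0 of 8 passed in limma and 4 had an unadjusted p under 0.05, with a list mean of 7.76 to 7.98 in high and 7.71 to 7.83 in low scars. The gamma delta T cell and type 17 list had 0 of 5 past the threshold and 3 with an unadjusted p under 0.05, and that of eosinophils and mast cells 0 of 8 and 1, with a list mean of 6.95 to 7.35 in high and 7.02 to 7.31 in low scars. The part of cell numbers in the receptor values was not tested.

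Genes next to the family in the pathway were counted in the same fit, in which 1.86% of all genes were higher and 2.47% lower. Related receptors and ligands outside the symbol rule had 0 of 13 higher and 2 lower. Pf4, a CXC chemokine of platelets and some macrophages, was at 8.41, 8.63, 8.03 and 8.03 in high 1 to high 4, against 9.21, 9.09, 9.36 and 8.95 in low 1 to low 4. The groups were apart, and the difference was -0.88 ± 0.15 (adjusted p = 0.0150). Ackr4, an atypical receptor that removes Ccl19 and Ccl21, was 0.30 lower on the log2 scale (-0.30 ± 0.07, adjusted p = 0.0404). Signalling genes below the receptors had 4 of 30 higher and 0 lower at a median of 0.09. These were the phospholipase Plcb2 (0.31), the receptor kinase Grk6 (0.33), Rgs16 (0.40), which ends G protein signals, and the G protein subunit Gng2 (0.24), named after its value was seen. Genes of the NF-kB and IL-17 pathways, which induce chemokines, had 0 of 21 past the threshold and 5 with an unadjusted p under 0.05 in limma, all positive, at a median of 0.15. These 5 are 23.8% of the list, near the 21.8% of all genes. Chemokine proteases, glycan partners and adhesion molecules had 0 of 12 and 3.

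Rows that the annotation pairs with several genes were outside these counts, and 6 of them name a chemokine. They were read from a fit over all 115830 rows, in which 0.142% of rows were higher and 0.197% lower. A row of Ccl19, a ligand of Ccr7, shared with a predicted locus, was at 8.47, 8.44, 8.58 and 8.64 in high 1 to high 4, against 9.71, 9.67, 9.37 and 9.41 in low 1 to low 4. The groups were far apart, and the difference was -1.01 ± 0.12 at an adjusted p of 0.0119. A second row of Ccl19, shared with 2 predicted loci, differed by -0.73 ± 0.14 (adjusted p = 0.0821). The row of the Ccl21 copies, the other ligands of Ccr7, differed by -0.47 ± 0.16 (adjusted p = 0.297). It was at 10.12 to 10.295 in high scars, against 10.94, 10.96, 10.46 and 10.303 in low 1 to low 4. Low 1 and low 2 had the highest values in the rows of Ccl19 and of the Ccl21 copies, as they did for Ccl27a. Whether these rows and Ccl27a share a cause was not tested. Rows of Ccl6 with Ccl9 and of Cxcl3 with Cxcl15 differed by -0.53 ± 0.30 and -0.05 ± 0.12. Which copy gave the signal of such a row cannot be told.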

How the data were processed

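Deposited log2 values per transcript cluster of 8 exon arrays were used. Per the submitters' processing notes the authors used Affymetrix Expression Console and PLIER, which summarises probe sets, and no version is named. How background was corrected and arrays were normalized is not given in the sources used here. A log2 scale was read from the range of the deposited values, 2.10 to 14.92. Probe annotation pairs 25539 of 115830 rows with 1 symbol and 2300 with several. Where a gene had several rows, as 4 members did, their log2 values were averaged, and no filter was applied. In all, 24 members lay below the median gene level and 9 below its 25th percentile, where background can hold much of the signal. All 47 members matched a RefSeq gene by Entrez number.

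High was compared with low regeneration in limma 3.58.1 (R 4.3.3, lmFit and eBayes, two-sided, Benjamini-Hochberg over all genes, threshold 0.05), with 4 mice a group per the series' design text. The number of arrays limits the precision. Genes named are those that passed, those whose groups do not overlap, the member with the smallest p or the largest difference in each role, and partners of genes that passed; other members are named within their role, and Cxcr6, Ccl9, Cxcl9 and Cxcl10, and markers that did not pass, were detailed after their values were seen. The members and lists were chosen with earlier results of these data known. Alternatives covered normalization, the variance model, filters, rows, covariates and left-out arrays.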

Additional observations from a re-analysis of the deposited data

Results flagged for a closer look

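Single scars stood apart from the other 3 of their group in 3 members, all among the high-regeneration arrays, where the gap to the nearest array exceeded Dixon's critical share of the group's range. Ccl5 was at 8.14 in high 2, against 7.79 to 7.83 in the other high scars. Ccl7 was at 11.17 in high 2, against 10.56 to 10.65. Cxcl13 was at 5.40 in high 1, against 5.21 to 5.23, a gap that is small on this scale. Chance alone flags about 1 in 20 groups, and 47 genes in 2 groups were examined.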

How the results depend on the processing

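The signs of the 4 called genes were kept in every alternative that tested them, while their calls were not. Cxcl14 passed in 22 of 23 alternatives (-0.59 to -0.44), Cxcl11 in 19 of 22 (0.93 to 1.27), Ccl27a in 13 of 23 (-1.17 to -0.81) and Ccl3 in 9 of 23 (0.38 to 0.55). Higher members numbered 1 with the replicate block, after median centring, with Xist as a covariate and with rows tested singly, 4 with an eBayes trend, and 5 with array weights or with genes above the 25th percentile. They numbered 0 without low 3 and low 4, without low 2, low 4 and high 4, and with the muscle mean as a covariate. Lower members numbered 1 without low 3 and low 4 and with Xist as a covariate, and 0 without low 2, low 4 and high 4, where 13 members had an unadjusted p under 0.05 in limma and 5 arrays remained. Leaving out each array in turn gave 1 to 3 higher and 1 to 2 lower members and a median difference of 0.029 (without high 2) to 0.17. Without high 1 the count was 2 higher and 1 lower, without high 2 it was 1 and 2, without high 3 it was 2 and 1, without low 1 it was 3 and 2, and without high 4, low 2, low 3 or low 4 it was 1 and 1. The median was 0.060 after median centring, 0.058 with the brightest row of a gene and 0.058 with rows tested singly. Over all genes, centring on the medians over all rows gave 212 higher and 593 lower calls, 26.3% higher against 42.9% before. The replicate block gave 105 and 134, Xist as a covariate 254 and 357, and the muscle mean 118 and 223. Leaving out low 3 with low 4 gave 127 and 198, and leaving out low 2, low 4 and high 4 gave 5 and 10. Cxcr3 changed sign after median centring (-0.031), without high 2 and without low 3 (-0.053 to 0.14 with each array left out in turn), and Ccl9 without low 3 and low 4 (0.12) and with the muscle mean as a covariate (0.10). The cause of these changes was not tested. Settings that left arrays out also had fewer arrays, which was not separated from the choice of arrays. The replicate numbers were not taken as pairs, since deviations of same-numbered arrays from their group means correlated at -0.26 to 0.03 across genes.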

Other observations

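Along the chromosomes, neighbouring members did not all move one way. On chromosome 11 Ccl2, Ccl7, Ccl11, Ccl12, Ccl8 and Ccl1 follow each other in the reference, with log2 differences of -0.01, 0.31, -0.48, 0.17, -0.91 and 0.01. The adjacent Ccl3 and Ccl4 had 0.47 and 0.33. On chromosome 5 the adjacent Cxcl9, Cxcl10 and Cxcl11 had 0.68, 0.44 and 1.07, and the neutrophil ligands Cxcl5, Cxcl15, Cxcl1 and Cxcl2 had 0.02, 0.27, 0.12 and -0.24. On chromosome 9, Cx3cr1 and its neighbour Ccr8 had 0.52 and -0.52. In a separate receptor cluster, which begins 3675 kb further on, Ccr9, Cxcr6, Xcr1, Ccr1, Ccr3 and Ccr2 had 0.24, 0.43, 0.21, 0.18, 0.15 and -0.19. Of these genes only Ccl3 and Cxcl11 passed the test. Ccl27a, on chromosome 4, had no other member on its chromosome. Rows shared by several genes, such as those of Ccl19 and the Ccl21 copies, were not placed.

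Differences of known ligands and receptors stood side by side in both ways. Ccl3, Ccl4 and Ccl5 were at 0.47, 0.33 and 0.35 where Ccr1 was at 0.18, and Ccl8 was at -0.91 where Ccr8 was at -0.52. Cxcl11 was higher (1.07) where Cxcr3 was at 0.03. Ccr7 was at 0.48 (adjusted p = 0.0518) where its ligand row of Ccl19 was lower (-1.01), and Ccl27a was lower (-0.91) where Ccr10 was at 0.15. Differences between ligand and receptor were not tested.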
